A study of Mus musculus with 14 samples.

Results

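Cytosolic ribosomal proteins are the protein components of the ribosome that translates nuclear mRNA. Of the 14161 genes in the deposited table, 89 were chosen by symbol alone: those that start with Rpl or Rps and a digit, with Rpsa, Rplp0, Rplp1 and Rplp2, leaving out the Rps6k kinases and symbols marked as pseudogenes. A total of 52 are named for the large subunit and 37 for the small subunit. One of the 37, Rps19bp1, is a binding protein of Rps19 and no part of the ribosome, and it was kept because the rule takes it. Without it 88 genes remained, and the median fold change of all members moved by at most 0.01 in each comparison.

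The ribosome has a small subunit that reads the mRNA and a large subunit that joins amino acids. Ribosomal proteins are made in matched amounts, and their mRNAs are among the most abundant of most tissues. Most of these mRNAs begin with a run of pyrimidines at the very 5′ end (the TOP motif), through which the mTORC1 pathway controls their translation. Most members exist as 1 working gene with many processed pseudogenes, and a few have a working paralog. In the heart the best known of these is Rpl3l, a form of the large subunit protein Rpl3 found in striated muscle.

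Poly(A) RNA of whole heart ventricle was sequenced from 14 male mice, 4 hours after an intraperitoneal injection. The groups were 5 GX/GX mice given MRL5, 4 GX/GX mice given DMSO, 2 WT/WT mice given MRL5 and 3 WT/WT mice given DMSO, called GX MRL5, GX DMSO, WT MRL5 and WT DMSO here. DMSO is the vehicle. MRL5 is a compound known by its code name which, per the design text, blocks the sodium channel that the GX mice carry. GX mice on MRL5 number 4 in the design text but 5 by their labels, and these 5 were kept. No source used here states age or strain. Values are the deposited signal in scaled reads per base, so each is already relative to transcript length by its name. Read depth in counts is unknown, and p-values measure the spread between these mice, 1 library each. In bulk tissue, fewer cells of a type and less RNA per cell cannot be told apart.

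The start of the transcript is shown first, because it carries the sequence that the family is known for. Of the 89 members, 66 had a promoter entry in RefSeq (GRCm38.p6). A tract was counted where a C followed by at least 5 bases that are C or T began within 10 bases of an annotated start, on the strand of the gene only. It was present for 34 of the 66 members (51.5%), against 5910 of 27025 genes with an entry (21.9%). By subunit it was present for 19 of 40 large subunit and 15 of 26 small subunit members. A match describes these letters only. Each line below gives 15 bases before the annotated start and 15 from it on, with the tract in capitals. The genes are Rps6, the substrate of S6 kinase, then Rpl18, Rpl28 and Rpl35, whose values are given below, Rplp2 of the stalk, and Rpl3l, the muscle paralog, whose window held no tract.
Rps6, chr4:86857353-86857382, minus strand: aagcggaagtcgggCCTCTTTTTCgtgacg
Rpl18, chr7:45718056-45718085, plus strand: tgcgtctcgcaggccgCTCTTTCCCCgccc
Rpl28, chr7:4792950-4792979, plus strand: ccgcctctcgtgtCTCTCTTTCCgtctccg
Rpl35, chr2:39005117-39005146, minus strand: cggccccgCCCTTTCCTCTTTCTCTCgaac
Rplp2, chr7:141447636-141447665, plus strand: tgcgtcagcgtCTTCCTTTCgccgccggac
Rpl3l, chr17:24727811-24727840, plus strand: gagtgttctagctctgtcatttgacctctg

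The mRNAs were short and abundant. Median annotated transcript length was 777.5 bases for the members and 2677 bases for all tested genes, and 69 of the 89 members (77.5%) were under 1000 bases, against 9.78% of all tested genes. Mean signal over the 14 libraries had a median of 2878 among large subunit members and 3229 among small subunit members. Rps2, near the mRNA entry of the small subunit, was the highest with a mean of 15941 (range 13603 to 20180.2), followed by Rps3a1 (8907), Rps14 (8582), Rps13 (8133) and the stalk protein Rplp1 (7907). The ranges of Rps3a1, Rps14, Rps13 and Rplp1 overlapped, so their order is not beyond the spread between libraries. The highest value of Rps14, 14550.5, was also above the lowest of Rps2, 13603. A total of 76 members had a mean of at least 1000. Those under it included paralogs and gene copies, with Rps3a2 at 3.52, Rpl10l at 6.88, Rps27rt at 33.2 and Rps3a3 at 33.9. GENCODE annotates Rps3a2 and Rps3a3 as processed pseudogenes. It annotates Rpl37rt and Rps4l as transcribed processed pseudogenes, and the symbol rule kept them all.

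Rpl5, Rpl12 and Rpl27a, also under 1000, are ordinary subunits with a copy of higher signal elsewhere in the genome. Rpl5, which with Rpl11 and 5S rRNA forms the particle that can bind Mdm2, had a mean of 124, against 3431 for Rpl11. The table holds a gene of another name, Gm15500, at 6426, whose sequence matches the whole coding sequence of Rpl5 over 891 bases with 0 mismatches. A near-identical copy (at least 95% identity over 200 bases and 60% of the shorter transcript) was annotated for 79 of the 89 members, and for 49 a copy outside the list was itself in the table. In 15 members the copies summed to over 10% of the member, and in 7 to more than the member: Rpl5, Rpl12, Rps3a2, Rpl27a, Rps23, Rps3a3 and Rpl28. Rpl12, part of the stalk base, had a mean of 85.2 with 2448 in its copies, and Rpl27a one of 815 with 2282 in its copies. No source used here says how reads were divided between such genes, so the levels of these members are uncertain. The lines below show 45 coding bases of 2 pairs (GRCm38, GENCODE M21), counted from the A of the start codon: bases 1 to 45 of Rpl5, which span an intron in the genome, and bases 304 to 348 of Rps20. The copy of Rps20 differs from it by G324A, in capitals, and it was the only mismatch in the 346 of 357 coding bases that aligned.
Rpl5, chr5:107900644-107901911, plus strand: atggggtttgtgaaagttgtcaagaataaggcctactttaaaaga
Gm15500, chr7:114706119-114706163, minus strand: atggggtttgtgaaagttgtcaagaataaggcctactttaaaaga
Rps20, chr4:3834513-3834557, minus strand: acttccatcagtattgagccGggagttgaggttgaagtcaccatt
Gm4332, chr3:119709808-119709852, plus strand: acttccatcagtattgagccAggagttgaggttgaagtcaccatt

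**Figure D1:**
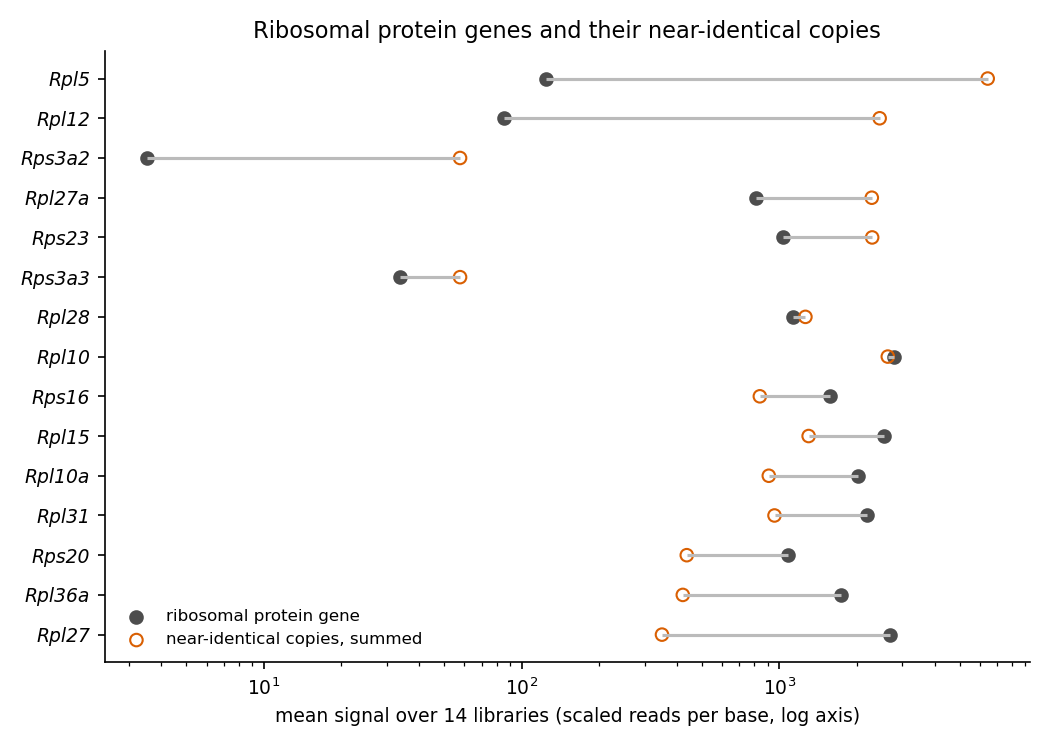
Mean signal over 14 libraries (log axis, scaled reads per base) of the 15 members whose near-identical copies in the table summed to over 10% of the member; filled points are the members and open circles the sum of their copies. The copies of the 7 members from Rpl5 to Rpl28 lie to the right of the member, farthest for Rpl5 at 124 against 6426.

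1 library was above the rest in the mean of the members. The mean log2 value of the 89 members was 11.07, 11.04, 11.04, 10.96 and 11.14 in GX MRL5 1 to 5 and 11.02, 10.83, 10.92 and 11.53 in GX DMSO 1 to 4, and it was 11.10 and 11.01 in WT MRL5 and 10.85, 10.97 and 10.95 in WT DMSO. GX DMSO 4 was above the other 13 libraries, which lay between 10.83 and 11.14. Members held 3.68% of its signal outside mitochondrial genes, against 2.55% to 3.12% in the others. By group the mean was 11.05 ± 0.07 in GX MRL5, 11.07 ± 0.31 in GX DMSO, 11.05 ± 0.07 in WT MRL5 and 10.92 ± 0.06 in WT DMSO (SD, n = 5, 4, 2 and 3 libraries).

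In GX DMSO 4, 73 of the 89 members had their highest value of all 14 libraries, against 11.0% of all tested genes. Set against the mean of GX DMSO 1 to 3, 86 of 89 were higher there (53.8% of all tested genes), and the median log2 difference was 0.60, 0.57 for the large and 0.63 for the small subunit. Rps27 was at 4206, 4077, 4139 and 9043 in GX DMSO 1 to 4, Rpl39 at 1053, 1142, 1055 and 2657 and Rps27a, a ubiquitin fusion, at 3083, 2819, 2784 and 6085. The 3 members that were not higher were Rpl5 at -0.18, Rpl7l1 at -0.20 and Rps3a2, which was at 2.72, 1.57, 0 and 0.

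Other short transcripts were also higher in this library. Among genes that are no members, the same difference had a median of 0.38 for 1310 genes with transcripts under 1000 bases, 0.14 from 1000 to under 2000, -0.01 from 2000 to under 4000 and -0.11 from 4000 bases on. Members had medians of 0.63 under 1000 bases (69 genes) and 0.44 from 1000 bases on (20 genes). A short-transcript index was therefore formed for each library, the mean log2 value of the 25% of non-member genes with the shortest transcripts minus that of the 25% with the longest. It was 0.373 in GX DMSO 4 and between -0.0729 and 0.174 elsewhere. The 4 libraries with the highest index, GX DMSO 4, WT MRL5 1, GX MRL5 1 and GX MRL5 5, were also the 4 with the highest member mean. The summed markers of cardiomyocytes, 6 of 6 measured, reached 480633 in GX DMSO 4, and the other libraries lay between 398460 and 462683. Their mean log2 value there, 15.54, was below those of GX MRL5 5, WT MRL5 2 and WT DMSO 1 (15.55 to 15.56). Against GX DMSO 1 to 3, 4 of 6 cardiomyocyte, 5 of 5 fibroblast, 5 of 5 erythroid and 4 of 5 endothelial markers were higher. So were 3 of 4 leukocyte, 2 of 4 smooth muscle and pericyte and 1 of 3 atrial markers.

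**Figure D2:**
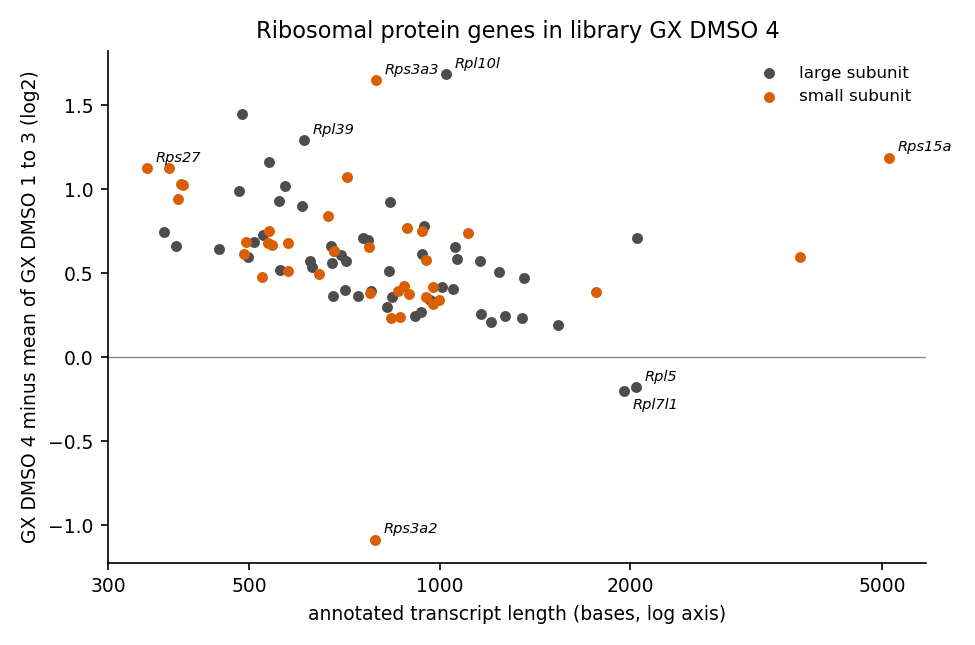
Difference between GX DMSO 4 and the mean of GX DMSO 1 to 3 (log2) for each member against its annotated transcript length (bases, log axis), large subunit in grey and small subunit in orange. Of 89 points, 86 lie above 0, and the labelled exceptions are Rpl5, Rpl7l1 and Rps3a2.

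**Figure D3:**
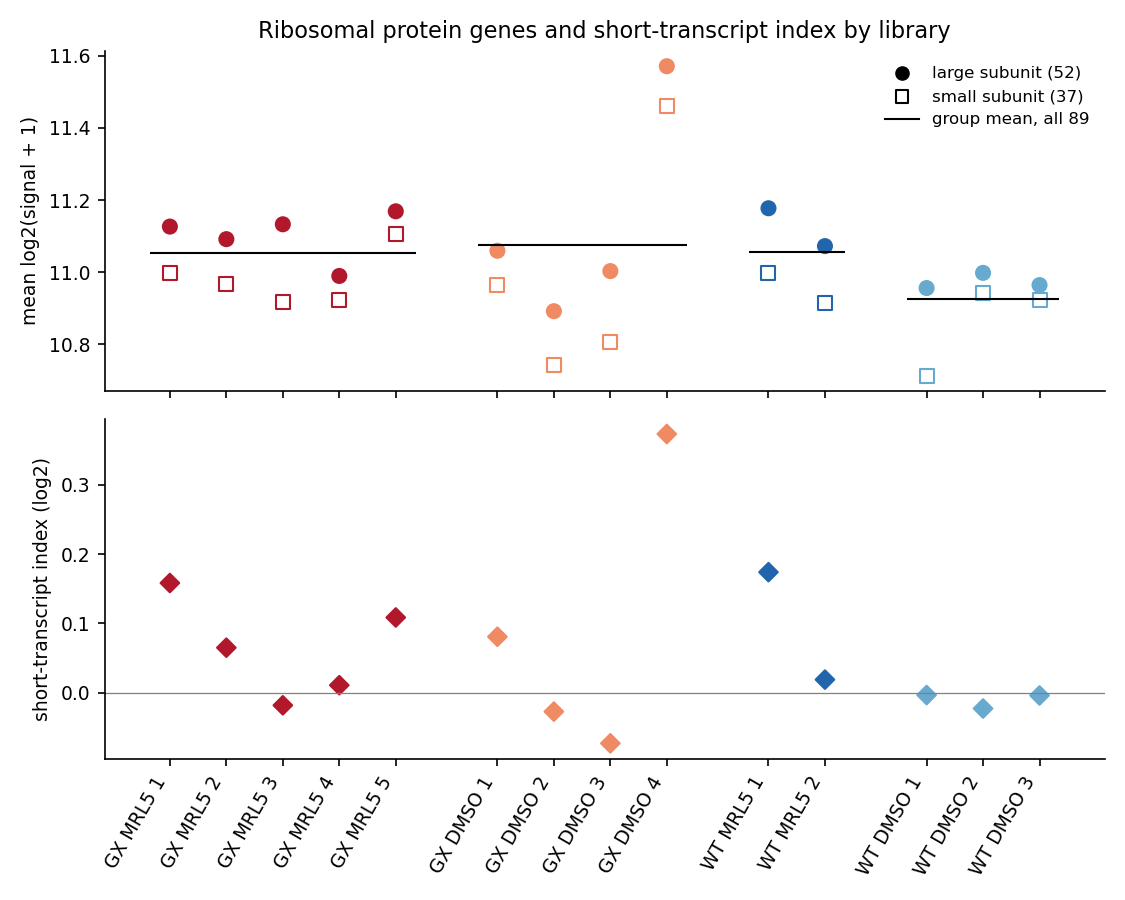
Upper panel, mean log2(signal + 1) of the 52 large subunit (filled) and 37 small subunit members (open) in each library, with a line at the group mean of all 89; lower panel, the short-transcript index (log2) of the same libraries. GX DMSO 4 is highest in both panels, at 11.53 for all members and 0.373 for the index.

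The comparison of MRL5 with DMSO in GX mice asks what the compound does where its target channel is present. In this comparison 29 of 89 had a positive log2 fold change (51.5% of all tested genes), with a median of -0.04 for the members, the large subunit and the small subunit alike, against 0.01 for all genes. No member and no other gene was called (limma adjusted p under 0.05, 0% of 14156 genes; 0.999 was the smallest member adjusted p). Members with an unadjusted p under 0.05 numbered 0, against 4.13% of all genes. In 0 members were the groups apart without overlap, against 0.713% of genes higher and 0.389% lower with MRL5.

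Single genes show how close the groups were. Rpl4, which lines the exit tunnel and had the smallest spread within groups of all members (SD 0.08 on the log2 scale), was at 4295, 4353, 4475, 4822 and 4688 in GX MRL5 and 4130.0, 3949, 4181 and 4663 in GX DMSO, a log2 fold change of 0.10 (SE 0.07, adjusted p = 0.999 by limma). The ranges overlapped, with the lowest 3 values in GX DMSO. Rps6 was at 5325, 5482, 5720.3, 5169 and 5624 in GX MRL5 and 5327, 4977, 5391 and 7011 in GX DMSO, a log2 fold change of -0.04 (SE 0.09), and GX DMSO 4 was the highest of both groups, which overlapped. Rps3a3, by annotation a processed pseudogene, had the largest log2 fold change of the members, 1.00 (SE 0.66). It was at 9.95, 69.1, 32.9, 51.3 and 61.0 in GX MRL5 and 7.05, 16.2, 20.8 and 44.4 in GX DMSO. Its low signal overlapped between groups, and it has a copy of higher signal. The other genes with the smallest p here, Rpl31 (-0.21), Rpl15 (-0.13) and Rps20 (-0.16), had fold changes below 0.

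The direction of this comparison rested on GX DMSO 4. Without it the median was 0.10, and 82 of 89 members had a positive log2 fold change (54.0% of all genes). In that setting 13 had an unadjusted p under 0.05 (4.32% of all genes) and 0 were called. Members higher with MRL5 without overlap then numbered 13. The share of all genes was not computed for this count, so it is no result about the members. Without GX DMSO 2, the library with the lowest member mean, the median was -0.12 with 8 positive. Adding the short-transcript index to the fit gave a median of -0.01 and 38 positive members. Within library set 148, which holds 4 libraries of each group, the median was -0.01.

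The comparison of MRL5 with DMSO in WT mice asks what the compound does without that channel. Here 70 of 89 members had a positive log2 fold change (49.7% of all genes), with a median of 0.12, against -0.00 for all genes. The medians were 0.14 for the large and 0.11 for the small subunit. No member and no gene was called (limma, 0% of 14156 genes, 0.831 was the smallest member adjusted p). Before adjustment, p was under 0.05 with a higher value for 4 members, Rps19, Rpl28, Rps2 and Rpl18 (2.90% of all genes), and with a lower value for 0 (2.74% of all genes). Both MRL5 libraries lay above all 3 DMSO libraries for 37 members (9.56% of all genes) and below them for 0 (9.66% of all genes). The count below was 14 without WT MRL5 2, 6 without WT DMSO 1 and 1 without WT MRL5 1, and the count above was 8 with equal column sums. Shares of all genes were not computed for these settings. Groups of fewer libraries overlap less often, so the counts with a library left out are no result about the members. The count of 8 used all 14 libraries, so the count above depended on the scaling.

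Rps19, the gene most often mutated in Diamond-Blackfan anaemia (GRCm38 chromosome 7, 24884371 to 24889806), was at 3752 and 2680.4 in WT MRL5 and 2278, 2152 and 2105 in WT DMSO, a log2 fold change of 0.54 (SE 0.23, adjusted p = 0.831 by limma). WT MRL5 1 was well above the rest, and the groups did not overlap. Rpl28, a large subunit protein (chromosome 7, 4792874 to 4795066), was at 1503 and 1129 in WT MRL5 and 1065, 913 and 898 in WT DMSO, a log2 fold change of 0.45 (SE 0.19). It shares its coding sequence with the copy Rpl28-ps1, of mean signal 1261. That copy was at 957 and 1312 in WT MRL5 and 1318, 997 and 951 in WT DMSO, so its groups overlapped. In WT MRL5 1, where Rpl28 was higher, the copy was the lower of its group. With copies added to their member, 3 members had an unadjusted limma p under 0.05 with a higher value in this comparison (5.65% of all genes in both directions). Rps2 was at 20180.2 and 15909.6 in WT MRL5 and 14381, 13823 and 14084 in WT DMSO, a log2 fold change of 0.35 (SE 0.15), and Rpl18 at 3863 and 2783 in WT MRL5 and 2612, 2460.4 and 2393 in WT DMSO, one of 0.40 (SE 0.19). For each of these members WT MRL5 2 was the lower of its group and still above the 3 WT DMSO libraries. Without WT MRL5 1 the fold changes were 0.30 for Rps19, 0.24 for Rpl28, 0.17 for Rps2 and 0.16 for Rpl18.

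The stalk recruits translation factors to the large subunit, and of its proteins Rplp0 had a log2 fold change of 0.21 (SE 0.15), Rplp1 of 0.29 (SE 0.18) and Rplp2 of 0.27 (SE 0.18), none called. Rpl13a, which is known in human monocytes also for translation control in inflammation, was at 10369.8 and 5848 in WT MRL5 and 5404, 5588 and 5227 in WT DMSO, a log2 fold change of 0.53 (SE 0.26). Its higher MRL5 value, from WT MRL5 1, set most of that difference. Rps6 had 0.11 (SE 0.12), and Rpl38, needed in mouse for the patterning of the skeleton, 0.10 (SE 0.18).

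With only 2 MRL5 libraries, each decided part of the result. Without WT MRL5 1 the median was 0.09 and no member had a p under 0.05 before adjustment (0 of 89). Without WT MRL5 2 the median was 0.23, 16 members were higher and 2 lower at an unadjusted p under 0.05 (17.5% of all genes), and 58 genes of the table were called, none of them a member; the spread of the library that is left is then taken from the other groups. The index was 0.174 in WT MRL5 1 and 0.0190 in WT MRL5 2, against -0.0227 to -0.00327 in WT DMSO, and with it as a covariate the median was 0.00 and 46 of 89 were positive. Without WT DMSO 2, whose summed atrial markers were the highest at 26227 (796 in the lowest library), the median was 0.16. In all, 0 members had an unadjusted p under 0.05 without WT DMSO 2 (4.46% of all genes) or WT DMSO 3 (3.77%). Without GX DMSO 4, which enters this comparison only through the shared estimate of spread, 14 did (6.40% of all genes). That count was 1 with library set as a covariate (4.38% of all genes in both directions) or equal column sums (3.95%). It was 11 with only the groups compared (4.16%) and 2 without GX MRL5 3 (5.67%) or GX MRL5 5 (4.78%). Within set 148 the median was 0.17, with 1 WT DMSO library. In the authors' deposited table, 12 members had a p under 0.05 in WT mice (4.16% of its genes). There 0 members had a q under 0.05, against 5 of 13974 genes. The smallest member q was 0.956, for Rpl35, and the median member effect was 0.08 on the natural log scale. In GX mice the authors' deposited table had 0 members with a p under 0.05 (3.43% of its genes) and a median effect of -0.03.

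**Figure D4:**
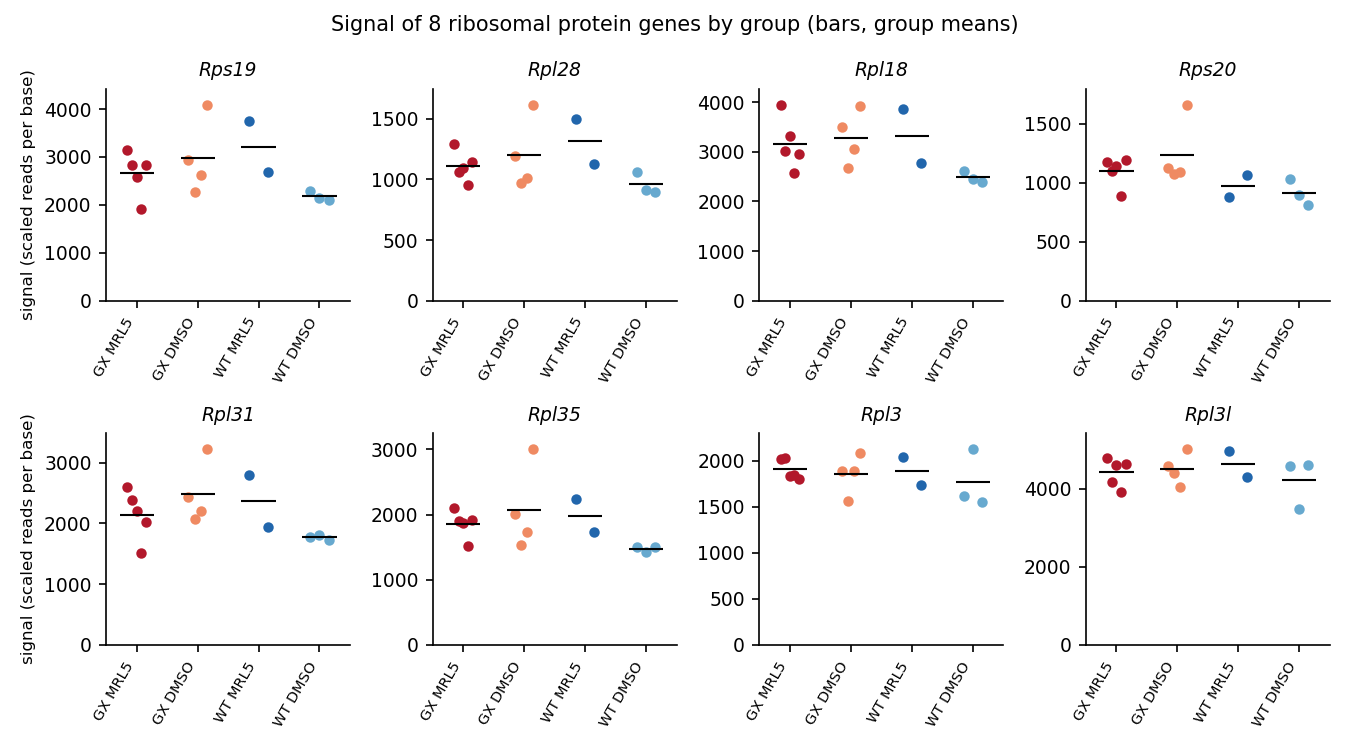
Signal (scaled reads per base, from 0) of 8 members in each library by group, with bars at group means. Rps19, Rpl28 and Rpl18 show both WT MRL5 libraries above the WT DMSO libraries, and the top point of GX DMSO in the upper row and for Rpl31 and Rpl35 is GX DMSO 4. The lower row also shows Rpl3 and Rpl3l, with the lowest point of Rpl3l in WT DMSO 2.

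Under DMSO, GX against WT asks what the genotype does without the compound. In this comparison 78 of 89 members had a positive log2 fold change (46.6% of all genes), with a median of 0.17 (0.16 large, 0.19 small), against -0.02 for all genes. No member and no gene was called (limma, 0% of 14156 genes, 0.866 was the smallest member adjusted p). Before adjustment, p was under 0.05 for 11 members with higher values (2.95% of all genes), 8 of them of the large subunit, and for 0 with lower values (2.72% of all genes). The 4 GX libraries lay above the 3 WT libraries for 11 members (3.40% of all genes) and below them for 0 (4.02% of all genes). The count above was 31 without GX DMSO 2 and 21 without WT DMSO 1 or WT DMSO 2. The count below was 10 without GX DMSO 4 and 1 without WT DMSO 1. Shares of all genes were not computed for these settings, in which groups of fewer libraries overlap less often. The counts with a library left out are therefore no result about the members. This comparison shares GX DMSO and WT DMSO with the ones above, and the following ones share groups with all of these.

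Rps20, a protein of the small subunit head (chromosome 4, 3831334 to 3835665), was at 1124, 1074, 1089.8 and 1661 in GX DMSO and 1029.9, 891 and 813 in WT DMSO, a log2 fold change of 0.42 (SE 0.15, adjusted p = 0.866 by limma). The groups did not overlap, with GX DMSO 4 highest and the other 3 close together just above WT DMSO 1. Its copy Gm4332, shown above, was at 337, 309.7, 306 and 797 in GX DMSO and 529, 316 and 364 in WT DMSO, so of the copy only GX DMSO 4 was above every WT DMSO library. Rpl31 (chromosome 1, 39367842 to 39371911) was at 2428, 2068, 2196 and 3225 in GX DMSO and 1769, 1815 and 1725 in WT DMSO, a log2 fold change of 0.46 (SE 0.18). Rpl35 (chromosome 2, 39001580 to 39005624), one of the proteins at the tunnel exit, was at 2014, 1536, 1736 and 3008 in GX DMSO and 1497, 1432 and 1500.0 in WT DMSO, a log2 fold change of 0.44 (SE 0.18). Rpl41, a very short basic peptide, was at 4468, 4014, 4380.0 and 7083 in GX DMSO and 3913, 3704 and 3534 in WT DMSO, a log2 fold change of 0.39 (SE 0.17). For these 3 genes every GX DMSO library was above every WT DMSO library, and GX DMSO 4 was the highest. Rpl31 shares its coding sequence with the copy Rpl31-ps8, of mean signal 939. That copy was at 1056, 778, 922 and 1492 in GX DMSO and 720, 812 and 740 in WT DMSO, so its groups overlapped. Rpl18 had 0.39 (SE 0.15), and Rpl11 0.34 (SE 0.15).

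Without GX DMSO 4 the median was 0.06, with 58 of 89 positive. In that setting 1 member had an unadjusted p under 0.05 and a higher value, and 3 a lower one (3.96% of all genes in both directions). The fold change of Rps20 was then 0.27, that of Rpl31 0.33, that of Rpl35 0.25 and that of Rpl41 0.21. Without GX DMSO 2 the median was 0.26 with 32 members at an unadjusted p under 0.05 (6.63% of all genes). Without WT DMSO 3 there were 0 (3.08%). That count was 5 without GX DMSO 1 (4.61%), 16 without GX DMSO 3 (6.60%) and 6 without WT DMSO 2 (4.18%). It was 3 higher with 1 lower without WT DMSO 1 (6.73%). It was 7 without GX MRL5 2 (5.00%), GX MRL5 3 (5.57%) or GX MRL5 5 (5.01%), which enter through the estimate of spread alone. The index, 0.373 in GX DMSO 4, lay between -0.0729 and 0.0808 for GX DMSO 1 to 3 and between -0.0227 and -0.00327 for WT DMSO, and with it as a covariate the median was 0.07 with 60 positive. Equal column sums moved the median of all genes to -0.11 and that of the members to 0.07, with 63 positive. Then 1 member had an unadjusted p under 0.05 (5.75% of all genes) and 0 were without overlap. The difference between both medians was 0.18 with either scaling. All GX DMSO libraries are of set 148, against 1 of WT DMSO, and within that set the median was 0.20. With library set as a covariate the median was 0.15 and 0 members had an unadjusted p under 0.05 (2.60% of all genes). Library names also hold an index number, which is 0 in GX DMSO 4, GX MRL5 5, WT DMSO 1 and WT MRL5 2. With set and an index number of 0 as covariates the median was 0.21 with 87 positive, and 2 members had such a p (2.90%).

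Under MRL5, GX against WT gave member medians close to 0. Here 43 of 89 members had a positive log2 fold change (49.4% of all genes), with medians of -0.01 for all members, -0.03 for the large and 0.03 for the small subunit, against -0.00 for all genes. No member and no gene was called (limma, 0% of 14156 genes, smallest member adjusted p = 0.843), and 0 members had an unadjusted p under 0.05 (6.58% of all genes). GX MRL5 lay above WT MRL5 without overlap for 2 members, Rpl17 and Rpl21 (4.76% of all genes), and below it for 0 (4.49% of all genes); these 2 were named after their values were seen. Without WT MRL5 2 the counts were 17 above and 28 below, without WT MRL5 1 15 above and 2 below, and without GX MRL5 4 8 above and 1 below. Without GX MRL5 3 the count above was 4, and without GX MRL5 1 there were 3 above and 1 below. Shares of all genes were not computed for these settings. Groups of fewer libraries overlap less often, so these counts are no result about the members. Rpl7l1, a paralog of Rpl7, had the smallest p, with 378, 355, 360.1, 501 and 383 in GX MRL5 and 417 and 496 in WT MRL5 and a log2 fold change of -0.21 (SE 0.15). GX MRL5 4 lay above both WT MRL5 libraries, so the groups overlapped. The other genes of small p, Rps13 at 0.16, Rpl28 at -0.24, Rps19 at -0.27 and Rps3a3 at 1.13, had SEs of 0.11, 0.18, 0.21 and 0.82, and Rps3a3 was at -0.29 without WT MRL5 1. Without WT MRL5 2, 63 genes of the table were called, none of them a member. Within set 148 the median was 0.03 and with the index as a covariate 0.03.

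The interaction of genotype and compound, the effect of MRL5 in GX mice minus that in WT mice, was below 0 for 69 of 89 members (47.8% of all genes), with a median of -0.15 (-0.16 large, -0.15 small), against 0.02 for all genes. No member and no gene was called (limma, 0% of 14156 genes, 0.755 was the smallest member adjusted p). Before adjustment, p was under 0.05 for 4 members with a value below 0, Rps19, Rpl27, Rpl31 and Rpl28 (3.29% of all genes), and for 0 above it (3.09% of all genes). Rpl27 was at 3308, 2605, 2608, 1709 and 2562 in GX MRL5 and 3069, 2392, 2451 and 4151 in GX DMSO, and at 4181 and 2325 in WT MRL5 and 2302, 2083 and 1919.8 in WT DMSO, an interaction of -0.80 (SE 0.35). Its highest values were in WT MRL5 1 and GX DMSO 4, and its lowest in GX MRL5 4. Rps19 had an interaction of -0.69 (SE 0.28), Rpl31 of -0.61 (SE 0.27) and Rpl28 of -0.54 (SE 0.24). Without WT MRL5 1 the interaction was -0.38 for Rpl27, -0.44 for Rps19, -0.35 for Rpl31 and -0.33 for Rpl28, and without WT MRL5 2 that of Rpl27 was -1.23. Without GX DMSO 4 the median was -0.05 with 37 positive, 3 members with an unadjusted p under 0.05 above 0 and 1 below it (5.15% of all genes). Without GX DMSO 2 the median was -0.25, with 14 members below 0 and 0 above it at an unadjusted p under 0.05 (7.59% of all genes). Without GX DMSO 3 there were 7 below and 0 above (6.90%), and without GX MRL5 1 there were 9 below and 1 above (9.74%). Without WT DMSO 3 there were 0 (5.22%), and without GX DMSO 1 (5.25%), GX MRL5 4 (5.30%) or WT DMSO 2 (4.93%) there was 1. Without WT MRL5 2, which leaves 1 library in that group, the median was -0.18. With the index as a covariate the median was -0.02, and within set 148 it was -0.16. With library set as a covariate 1 member was below 0 at an unadjusted p under 0.05 (4.72% of all genes).

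**Figure D5:**
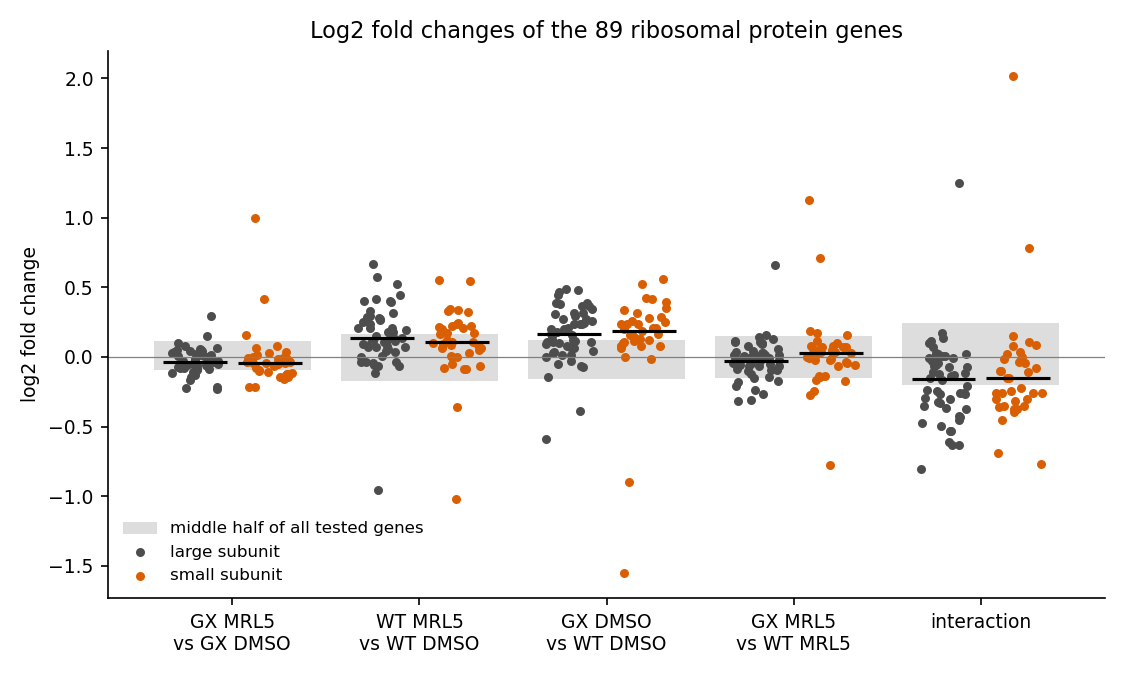
Log2 fold change of each of the 89 members in the 4 comparisons and the interaction, large subunit in grey and small subunit in orange, with bars at the medians and a grey band over the middle 50% of all tested genes. The medians stand at -0.04 and -0.04, 0.14 and 0.11, 0.16 and 0.19, -0.03 and 0.03, and -0.16 and -0.15 for the large and the small subunit.

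The subunits stayed close to each other in each group. The mean log2 value of large minus small subunit members was 0.120 ± 0.062 in GX MRL5, 0.138 ± 0.045 in GX DMSO, 0.169 ± 0.015 in WT MRL5 and 0.114 ± 0.112 in WT DMSO (SD, n = 5, 4, 2 and 3). The group means differed by less than the spread between WT DMSO libraries, which were at 0.243, 0.0568 and 0.0427 in order. The first is of set 148 and the others of set 174, and the pseudogene Rps3a2 was at 0, 8.01 and 14.3 in them. What set this spread was not tested. The sign of this difference hangs on a single gene: with a filter of at least 10 in 2 libraries, which leaves out only Rps3a2 of the members, it was -0.151 in GX MRL5, -0.145 in GX DMSO, -0.0801 in WT MRL5 and -0.122 in WT DMSO.

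Paralog use was compared for 7 pairs with both genes measured. Rpl3l (chromosome 17, 24727820 to 24736143) was at 4792, 4184, 4621, 3909 and 4645 in GX MRL5, 4581, 4399, 4056 and 5025 in GX DMSO, 4967 and 4306 in WT MRL5 and 4591, 3494 and 4616 in WT DMSO. Rpl3 (chromosome 15, 80077791 to 80091868) was at 2013, 2032, 1834, 1843 and 1801 in GX MRL5, 1885, 1557, 1886 and 2080.5 in GX DMSO, 2045 and 1736 in WT MRL5 and 1620.5, 2128 and 1549.8 in WT DMSO. Rpl3l was above Rpl3 in all 14 libraries, by a ratio of 1.64 to 2.98 with a median of 2.43. The lowest ratio was in WT DMSO 2, the library with the highest atrial markers. The log2 ratio averaged 1.22 ± 0.15 in GX MRL5, 1.29 ± 0.16 in GX DMSO, 1.30 ± 0.02 in WT MRL5 and 1.26 ± 0.48 in WT DMSO (SD). It differed between groups by -0.07 for MRL5 against DMSO in GX, 0.03 for the same in WT, 0.02 for GX against WT under DMSO and -0.08 under MRL5. Two-sided exact permutation tests gave p = 0.524, 1, 0.914 and 0.667 in that order, where the smallest these group sizes allow are 0.0159, 0.2, 0.0571 and 0.0952. Without WT DMSO 2 the difference was -0.24 for MRL5 in WT and -0.25 for GX against WT under DMSO.

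Rpl36al was also above its X-linked paralog Rpl36a in all 14 libraries, with a ratio of 1.38 to 2.42. The other paralogs were the minor form in each library. Their median ratio was 0.207 for Rpl22l1 to Rpl22, 0.211 for Rps27l to Rps27 and 0.0687 for Rpl7l1 to Rpl7. It was 0.0695 for Rps4l, annotated as a transcribed processed pseudogene, to Rps4x and 0.00257 for Rpl10l, which is known from testis, to Rpl10. Of the 28 tests over pairs and comparisons, 0 had an exact permutation p under 0.05. Group sizes allowed such a p only for MRL5 against DMSO in GX, where the smallest possible was 0.0159. After adjustment over the 28 tests a call was not possible at these group sizes, so the tests cannot decide whether paralog use differed. Rpl39l was not analysed here, and Rpl39 alone was at 1039 to 2657.

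Genes that work with the members were read from lists. Of 19 translation factors and other mRNAs of the TOP kind, 18 were tested, with medians of 0.01 for MRL5 against DMSO in GX, 0.08 for the same in WT, 0.10 for GX against WT under DMSO, 0.03 under MRL5 and -0.08 for the interaction. In the same order 9, 14, 13, 10 and 5 of them were positive. The 25 ribosome biogenesis genes had medians of 0.10, 0.07, 0.01, 0.06 and 0.02, with 20, 16, 13, 14 and 14 positive. The 18 regulators, such as Tsc2, had medians of 0.02, 0.04, 0.05, 0.03 and -0.06, with 13, 11, 10, 10 and 6 positive. Of all these lists 0 genes were called in any comparison. In GX DMSO 4 the median difference from the other GX DMSO libraries was 0.23 for the TOP list, 0.09 for biogenesis and -0.01 for regulators, whose median transcript lengths were 1680.5, 2507 and 3252 bases.

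Markers of cell types had 0 genes called in any comparison. Cardiomyocyte markers had medians between -0.14 and 0.12 over the comparisons, fibroblast markers between -0.19 and 0.24, smooth muscle and pericyte markers between 0.03 and 0.19, and endothelial markers between -0.18 and 0.23. Leukocyte markers (4 of 5 tested) lay between -0.33 and 0.14 and erythroid markers between -0.39 and 0.64. Atrial markers (3 of 4 tested) lay between -1.95 and 1.45, and 1 of them was at 0 in at least 1 library. In the comparisons in which most members were positive, MRL5 against DMSO in WT and GX against WT under DMSO, endothelial markers were positive for 5 of 5 genes in both, with summed levels of 10628 to 13624 in GX DMSO, 11436 to 13356 in WT MRL5 and 10091 to 12448 in WT DMSO. Erythroid markers were positive for 0 of 5 and atrial markers for 0 of 3 in both. Leukocyte markers were positive for 3 of 4 in the comparison within WT and 0 of 4 in that under DMSO, cardiomyocyte markers for 5 and 4 of 6, fibroblast markers for 1 and 2 of 5, and smooth muscle and pericyte markers for 2 and 2 of 4. Their part in the values of the members was not tested.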

How the data were processed

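Poly(A) RNA of 14 mouse ventricles was read from a table with 1 value per gene and library. The deposited values are a signal unit, scaled reads per base, per the file headers; no source used here says how they were scaled. Per the submitters' processing notes, the authors used kallisto and sleuth 0.3.0 with build GRCm38. The authors deposited p-values, q-values and effects, per the file headers. The deposited effects are read as natural log, the default scale of sleuth, because they were close to the differences of the mean natural log values. The deposited signal is not counts, so no count test was run, and depth is unknown. Column sums were 17244042 to 22163644, of which mitochondrial genes held 38.9% to 49.7%.

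Of 14307 entries, 146 had values identical to another and were left out, and 21 symbols turned into dates were restored. A total of 14156 genes with a value of at least 1 in at least 2 libraries were tested with limma 3.58.1 in R 4.3.3 (trend and robust variance) on log2(value + 1), which understates fold changes of low genes. All 14 libraries entered, each group had 1 mean, and 10 degrees of freedom were left. Benjamini-Hochberg adjusted p-values over all genes under 0.05 were called, and tests were two-sided. Standard errors (SE) are moderated. The fit was tested on simulated data. Exact permutation tests of paralog ratios used scipy 1.17.1 (Python 3.11.15) and were adjusted over 28 tests. Copies were found with BLAST 2.17.0 on GENCODE M21, coding genes of another name left out. Transcript length is the median over annotated transcripts. The index used transcripts of at most 1689 bases (3503 genes) and at least 4046.5 bases (3500 genes).

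The members and lists were chosen with earlier results of these data known, so lists have counts and medians and no p. Genes named were the 5 of smallest p in each comparison, the paralogs, the 5 highest and 5 lowest in signal, the 5 of largest spread and a set chosen by role. Library names give a set 174, made up of replicates 2 and 3 of WT DMSO and GX MRL5 4, and a set 148 with the rest. Set 174 alone holds no pair of groups under 1 comparison. Replicates were numbered by record order. Other scalings, filters, a pseudocount, covariates for library set, index number or the short-transcript index, and each library left out were tried as alternatives. A list of ribosomal proteins outside the symbol rule is not reported here.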

Additional observations from a re-analysis of the deposited data

Results flagged for a closer look

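Dixon's test was run on 116 groups of 4 or 5 libraries, for the named members, the paralog ratios and summaries of each library. In 19 (16.4%) 1 library was set far apart from the others. Chance gives about 1 in 20 for a single test. These tests reread the same libraries and are not independent, so the share cannot be set against that rate. In 12 of the 19 it was GX DMSO 4 and the value was high. No summary of a library, such as the mean of the members or the short-transcript index, was flagged.

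Rps27 was at 9043 in GX DMSO 4, against 4077 to 4206 in GX DMSO 1 to 3, Rps27a at 6085 (others 2784 to 3083), Rpl39 at 2657 (1053 to 1142), Rpl36a at 2951 (1410.0 to 1556), Rpl22l1 at 1068 (462 to 483) and Rpl38 at 2008 (1147 to 1231). Rpl41 was at 7083 (4014 to 4468), Rpl36al at 4781 (2805 to 3116), Rps27l at 1525 (863 to 942) and Rps20 at 1661 (1074 to 1124). Rps3a1 was at 11519 (8515 to 8693) and Rpl7 at 6359 (5228 to 5384).

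GX MRL5 4, the library of set 174 in its group, had Rpl7l1 at 501 (355 to 383 in the other GX MRL5 libraries) and Rps13 low at 7834 (8364 to 8560). The log2 ratio of Rpl7l1 to Rpl7 was -3.54 there (-4.04 to -3.91 in the others). GX MRL5 1 had Rps14 at 11631 (6885 to 7970) and Rpsa, also known as the laminin receptor, at 5730 (5006 to 5161). GX MRL5 5 had Rps27rt at 48.7 (26.9 to 33.0) and Rps4x at 5158 (4778 to 4870).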

How the results depend on the processing

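No paired analysis was possible because replicates were numbered by record order, which links no mice across groups. In 12 other settings and with each library left out in turn, 0 members were called in any comparison. Of the paralog tests that could be run 0 passed, and most could not pass at these group sizes. Genes called over the whole table, 0 in each comparison, numbered 1 for GX MRL5 against WT MRL5 with only the groups compared and 1 for the interaction with equal column sums, with or without mitochondrial genes. With 1 library left out the counts ran from 0 to 2 for MRL5 in GX, 0 to 58 for MRL5 in WT, 0 to 1 for GX against WT under DMSO, 0 to 63 under MRL5 and 0 to 27 for the interaction. The 63 came without WT MRL5 2.

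Medians of the members ran from -0.12 to 0.10, from 0.09 to 0.23, from 0.06 to 0.26, from -0.05 to 0.04 and from -0.25 to -0.05 in that order with 1 library left out. With copies added to their member, chosen after seeing the data, they were -0.04, 0.13, 0.18, -0.00 and -0.17. Large minus small subunit ran from 0.0958 to 0.134 in GX MRL5, 0.118 to 0.152 in GX DMSO, 0.158 to 0.179 in WT MRL5 and 0.0497 to 0.150 in WT DMSO. It was 0.185 in GX DMSO with a pseudocount of 0.1 and 0.243 in WT DMSO within set 148, and with the filter of at least 10 it was -0.151, -0.145, -0.0801 and -0.122 by group, where Rps3a2 drops out.

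The log2 ratio of Rpl3l to Rpl3 changed sign within set 148 for MRL5 in WT (-0.21) and GX against WT under DMSO (-0.21). With 1 library left out these ran from -0.24 to 0.19 and from -0.25 to 0.18, lowest without WT DMSO 2, and the genotype difference was -0.04 without GX DMSO 2. Rps3a3 ran from -0.29 (without WT MRL5 1) to 2.54 (without WT MRL5 2) for GX against WT under MRL5. The cause was not tested. The number of libraries, 2 in WT MRL5, limits all comparisons.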
